A study of Sus scrofa with 37 samples.

Results

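The medium phosphorus (M) diet was followed in 5 pigs whose peripheral blood mononuclear cells (PBMC) were profiled at 28 and again at 63 days postnatum (dpn). The members were the 5 M arrays at 63 dpn and the 5 arrays of the same pigs at 28 dpn, 10 of the 37 arrays in the series, paired by the pig number in the sample titles (pigs 2, 5, 13, 16 and 19). Pig 8, also assigned to M, was measured at 28 dpn only and did not enter the comparison. The pigs were German Landrace piglets, 2 labelled m and 3 labelled w for gender, none with a genetic modification. At 28 dpn they were being weaned and had not yet received the experimental diet, and from then on they were fed a wheat, barley and soybean diet with the recommended level of digestible phosphorus and no added phytase. The other pigs received less (L, 6 pigs with both ages) or more (H, 7 pigs with both ages) of it, and the calcium to phosphorus ratio differed between the diets. Age, weaning and the M diet changed together between the ages, so their parts in any value below cannot be told apart within M.

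PBMC are the lymphocytes and monocytes left at the interface of a density gradient once granulocytes and red cells have sunk through it. Phosphorus balance is kept by the gut, the kidney and bone under the control of parathyroid hormone, vitamin D and FGF23, and blood cells are bystanders and partners in it, since monocytes share their origin with the osteoclasts that resorb bone. In the weeks after weaning a piglet leaves the fat of milk for the starch of cereal feed, loses maternal antibodies and meets new microbes, and the mix of its blood cells matures.

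The measured values were log2 signals of probe sets after RMA, a procedure that corrects the background, equalises the arrays and summarises the probes of a probe set. A change is the log2 signal at 63 dpn minus that at 28 dpn in the same pig, so that a change of 1 is a doubling of the signal. Of 47845 probe sets, 28086 passed the filters and were tested. Array medians ran from 5.25 to 5.42. The 10 M arrays lay between -26.5 and 29.2 on the main axis of variation among arrays (a principal component with 13.8% of the variance), whereas the H arrays of pigs 11 and 12 at 63 dpn reached -66.7. Differences of genes and lists between M and H are therefore given also without these pigs. Of the marker genes of the cell types, 9 of 10 T cell genes on the array, 12 of 12 B cell genes and 16 of 16 monocyte genes passed the filters, and so did 12 of 13 platelet, 7 of 10 erythroid and 6 of 7 neutrophil genes.

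No probe set of the M comparison passed both thresholds, a limma P and a Storey q of at most 0.05 (0 of 28086, 0%), and the lowest q was 0.0589. At an unadjusted limma P of at most 0.05 there were 1443 probe sets (5.14%), 780 higher at 63 dpn (2.78%) and 663 lower (2.36%), while at any P 49.1% of the probe sets were higher. All 5 pigs were higher at 63 dpn for 902 probe sets (3.21%) and lower for 662 (2.36%), and the 5 arrays at 63 dpn lay wholly above the 5 at 28 dpn for 129 (0.459%) and wholly below for 74 (0.263%). The median change over all probe sets tested was -0.00371 and the median absolute change 0.132, with 32 probe sets higher by more than 1 and 56 lower by more than 1. The genes below are accordingly described by their values, and none of the changes on M is a call.

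CPT1A, the carnitine palmitoyltransferase that admits long-chain fatty acids to mitochondria and sets the pace of their oxidation, had the lowest P of all. Its log2 signal on probe set SNOWBALL_000601_st was 8.98, 8.92, 8.51, 8.92 and 8.88 in pigs 2, 5, 13, 16 and 19 at 28 dpn, and 7.49, 7.16, 7.74, 8.07 and 7.23 at 63 dpn. Every array at 63 dpn lay below every array at 28 dpn. The change was -1.30 (SE 0.21, q = 0.0589, 95% interval -1.73 to -0.87), lower in 5 of 5 pigs. Leaving out any 1 pig kept the unadjusted P at or under 4.79e-05, and without pig 13, the pig with the smallest decrease, CPT1A passed both thresholds at -1.43 (q = 0.0452). The other 3 tested probe sets of CPT1A changed by -0.35, -0.10 and 0.01, none with a P of at most 0.05, so the size of the change belonged to 1 probe set. SLC25A20, the carrier that takes the acylcarnitines made by CPT1A across the inner mitochondrial membrane, was lower as well. It was at 5.89, 5.70, 5.55, 5.96 and 5.57 at 28 dpn and at 5.28, 5.01, 5.29, 5.0 and 5.49 at 63 dpn, with no overlap of the ages and a change of -0.52 (SE 0.16, q = 0.917). Of 12 measured genes of fatty acid oxidation, 2 were lower and 1 higher at a P of at most 0.05, beside 2.36% and 2.78% of all probe sets tested, the higher one being ETFA, a subunit of the flavoprotein that collects electrons from acyl-CoA dehydrogenases (0.39, SE 0.17, higher in 4 of 5 pigs). The median of the list was 0.04, against -0.00371 over all probe sets tested. HADHB, which acts in the last steps of beta oxidation, was at 0.15, ACSL1 at -0.06 and the muscle isoform CPT1B at -0.16. Among the genes that fatty acids regulate through PPAR receptors, PPARA itself was at 0.39 (SE 0.17) and PDK4 at 0.01. TXNIP, an inhibitor of glucose uptake, was at -0.41 (SE 0.19), and the median of the 11 measured genes was 0.05. The P of PPARA went over 0.05 in 4 of the 5 fits with 1 pig left out, and those of ETFA and TXNIP in 3.

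PGM2L1, which makes glucose 1,6-bisphosphate, the activator of phosphoglucomutase, had the next lowest P. Its signal was 8.83, 9.05, 9.14, 8.82 and 8.41 at 28 dpn and 10.33, 10.29, 10.05, 9.92 and 10.36 at 63 dpn. The lowest array at 63 dpn lay above the highest at 28 dpn, and the arrays at each age were close to each other (SD 0.28 and 0.20, n = 5). The change was 1.34 (SE 0.22, q = 0.0589, 95% interval 0.88 to 1.80), higher in 5 of 5 pigs, and its other tested probe set was at 0.21 (SE 0.16). The 13 other measured genes of glycolysis and glycogen breakdown did not include one with a P of at most 0.05, and the median of all 14 was -0.08. PYGL, the glycogen phosphorylase of liver and leukocytes, was at -0.39, ALDOA at -0.36 with 5 of 5 pigs lower, and GAPDH at -0.01. PNP, the purine nucleoside phosphorylase that T cells depend on and a source of ribose phosphate, was at 8.12, 8.46, 7.64, 7.99 and 7.52 at 28 dpn and at 8.90, 8.65, 8.42, 8.91 and 8.80 at 63 dpn. The ages overlapped, but each pig was higher at 63 dpn, with a change of 0.79 (SE 0.19, q = 0.72).

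The probe set for mir-888, a human microRNA hairpin printed on this array, was higher at 63 dpn on M and was among the 10 named probe sets with the lowest P against each of the other diets. Its signal was 2.82, 3.18, 3.07, 2.16 and 3.54 at 28 dpn and 5.26, 3.88, 3.60, 5.23 and 4.38 at 63 dpn. The values at 28 dpn lay near the bottom of the signal range. That of pig 16 was below the 2.5 that the filter required of the mean over all arrays. The ages did not overlap, although pig 13 at 63 dpn was only just above pig 19 at 28 dpn, and pigs 2 and 16 stood highest. The change was 1.51 (SE 0.27, q = 0.0988, 95% interval 0.96 to 2.07). Pig 8 at 28 dpn was at 3.73, above all 5 paired pigs at that age and above pig 13 at 63 dpn. The change was 0.10 on L, with means of 3.13 and 3.23 at the 2 ages, and 0.01 on H, with a mean of 3.14 at both. The difference to L was 1.42 (95% interval 0.67 to 2.17, q = 1) and that to H 1.51 (0.78 to 2.23, q = 0.219), or 1.52 without the H pigs 11 and 12, so neither passed the q threshold. Over all probe sets tested, 2.78% were higher and 2.36% lower at a P of at most 0.05. The microRNA probe sets as a class had larger shares. Of 1314 tested, 54 were higher (4.11%) and 42 lower (3.2%) at that P, with a median change of 0. Those with the next lowest P were mmu-mir-1903 at 0.94, hsa-mir-1276 at 0.80 and bta-mir-181c at -1.34, each with a q of at least 0.731, and hsa-mir-181c was at 0.64, opposite to the bovine probe set of the same name.

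BC015417.2, a transcript without a gene symbol in the platform annotation, was at 4.71, 5.35, 4.33, 3.96 and 4.43 at 28 dpn and at 6.59, 5.83, 6.22, 5.97 and 4.75 at 63 dpn. It was higher in 5 of 5 pigs, by 1.31 (SE 0.25, q = 0.21), with pig 19 changing least. TPPP3, a tubulin polymerisation promoting protein, was at 6.06, 7.18, 6.34, 6.97 and 6.82 and then at 8.02, 7.21, 7.70, 7.48 and 6.75. It was higher in pigs 2, 13 and 16 and within 0.1 of its earlier value in pigs 5 and 19, with a change of 0.76 (SE 0.22, q = 0.88). The other tubulins and tubulin regulators measured with it ran from -0.09 to 0.19. RPL22L1, the paralogue of the ribosomal protein RPL22, which acts in lymphocyte development, was higher in 5 of 5 pigs without overlap of the ages, by 0.82 (SE 0.21, q = 0.789), and its other probe set was at 0.11. The other 13 ribosomal protein genes measured with it ran from -0.23 to 0.37, none with a P of at most 0.05.

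**Figure D1:**
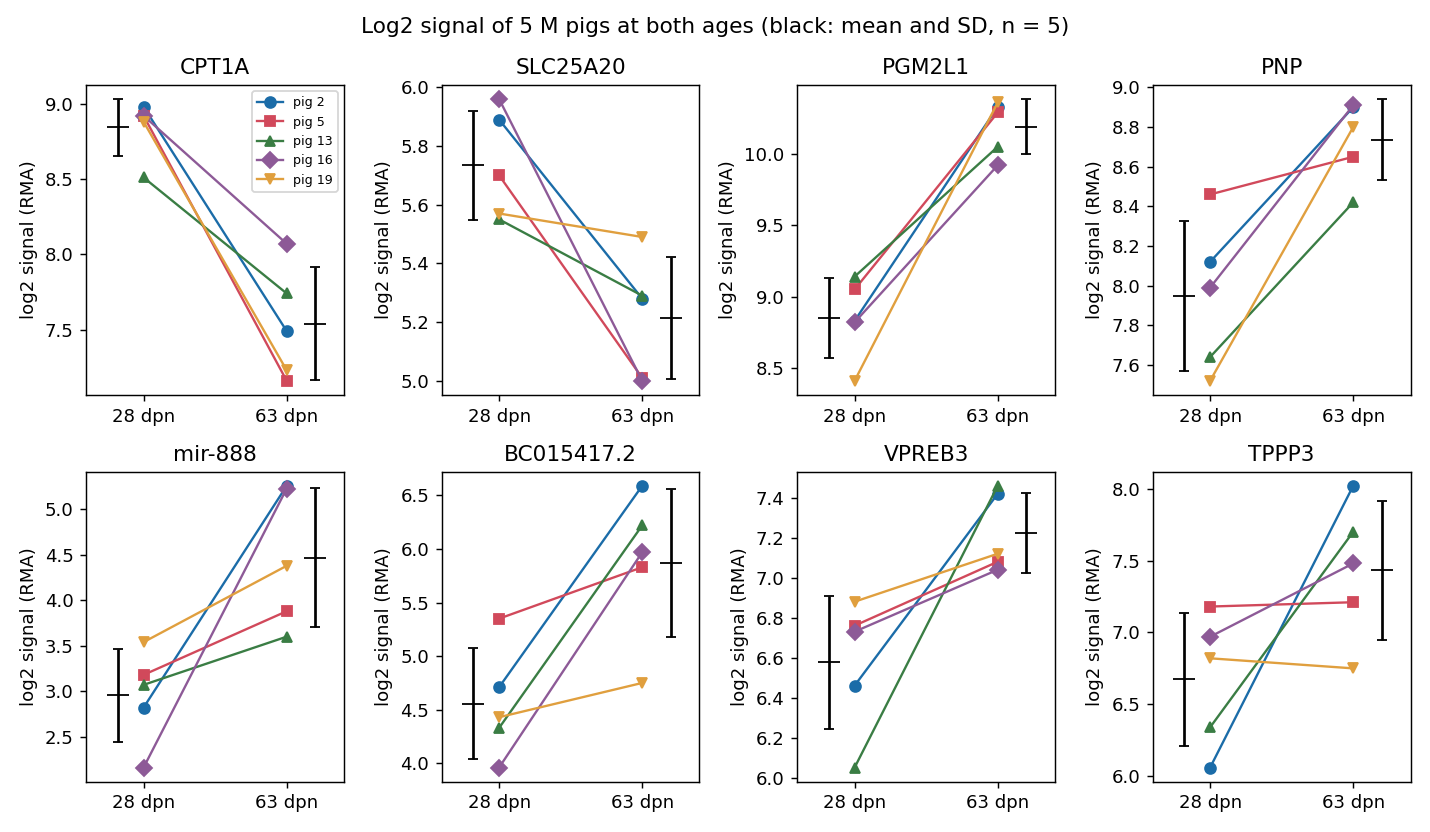
Log2 signal (RMA, vertical axis) of 8 genes in the 5 M pigs at 28 and 63 dpn (horizontal axis), 1 probe set each, with 1 coloured line for each pig and the mean and SD (n = 5) in black beside the points. The lines of CPT1A run from 8.51 to 8.98 down to 7.16 to 8.07, those of PGM2L1 from 8.41 to 9.14 up to 9.92 to 10.36, and the lines of TPPP3 are nearly level in pigs 5 and 19.

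Further genes were higher in 5 of 5 pigs, each of those that follow with a q of at least 0.426. MIOX, the first enzyme of inositol breakdown, was at 1.04 (SE 0.28), and PHLPP2, a phosphatase that acts on the kinase AKT, was at 0.62 (SE 0.16). G6PC2, a glucose-6-phosphatase known from pancreatic islets, was at 0.66, and SYTL5, a Rab27 effector of vesicle traffic, at 0.70. BBS2, a component of the complex that carries proteins to the cilium, was at 0.51. The signal of BBS2 was low, at 2.17 to 2.75 at 28 dpn and 2.73 to 3.14 at 63 dpn. The arrays of the ages did not overlap for CLDN20, a claudin (5.93 to 6.32, then 6.59 to 7.12), and for TNRC6A, a partner of Argonaute in microRNA silencing (2.15 to 2.53, then 2.81 to 3.33). The probe set of TNRC6A lay near the bottom of the signal range, and the other 3 of this gene, with means of 6.63 to 7.33 at 28 dpn, changed by 0.05, -0.16 and -0.07. Other probe sets changed less for CLDN20 (0.27) and SYTL5 (0.11) too, and those of PHLPP2 were at 0.26 and -0.21. LOC100520032, a protein-coding gene with no symbol in the annotation, was at 1.03 (SE 0.22). A probe set of LOC396781, whose synonym in the annotation is IGHG, an immunoglobulin heavy chain, was at 0.91 (SE 0.21). The annotation gives this name to 186 tested probe sets, which cannot be taken as separate genes, and 23 of them were higher and 6 lower at a P of at most 0.05, with a median of 0.09 and a range from -0.87 to 1.18.

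Among the genes lower in 5 of 5 pigs were genes of iron export, lipid mediators and signal control. SLC40A1 is ferroportin, the exporter by which macrophages and red cell precursors release iron, and all of its 3 tested probe sets were lower, by 0.71 (SE 0.20), 0.76 (SE 0.31) and 1.01 (SE 0.32) on the log2 scale. On the probe set with the highest mean it was at 11.03, 11.24, 11.22, 11.25 and 10.30 at 28 dpn and at 10.71, 8.98, 11.07, 9.77 and 10.72 at 63 dpn. The decrease was thus mostly that of pigs 5 and 16, and pig 19 was higher at 63 dpn. HPGDS, the haematopoietic prostaglandin D synthase, was at -0.63 (SE 0.18), AWAT2, a wax ester synthase, at -0.61, and BCAS4 at -0.72. TOB1, an antiproliferative protein of resting T cells, was at -0.48 (SE 0.14) and did not overlap between the ages, although pig 2 at 28 dpn and pig 5 at 63 dpn were both at 3.80 after rounding. Its other probe set, with a higher mean of 8.0 at 28 dpn, was at -0.05 with 2 pigs higher and 3 lower. RBM15, an RNA-binding protein of blood cell development, was at -1.08 (SE 0.32), the lowest array being pig 19 at 63 dpn with 2.51, and its other probe set was at -0.06. PADI3, a peptidylarginine deiminase, and LRRC57, a leucine-rich repeat protein, were lower without overlap, by 0.69 and 0.43 on the log2 scale, while the other probe set of PADI3 was at -0.07. ACY1, an aminoacylase, was at -0.50 on 1 probe set and at 0.21 and 0.47 on the other 2, with 4 of 5 pigs and 1 of 5 pigs higher. ZNF630, a zinc finger protein, was at -0.60, and probe sets that the annotation assigns to the microRNA genes MIR885 and MIR628 were at -0.55 and -1.08. All of these had a q of at least 0.846.

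The interferon stimulated genes, the antiviral programme that type I interferon switches on, had the lowest median of the process lists. Of 22 measured genes, 10 were lower and 0 higher at a P of at most 0.05, beside 2.36% and 2.78% of all probe sets tested, and the median change was -0.75. The 10 were ISG15 (-1.02), RSAD2 (-1.11), MX2 (-1.22), OAS1 (-1.26), XAF1 (-0.85), IFI6 (-1.08), OAS2 (-0.80), BST2 (-0.75), IFI44 (-0.89) and USP18 (-0.74). The pigs were not alike. The mean change of the list was -0.10, -0.24 and -0.04 in pigs 2, 5 and 13, and -1.49 and -1.34 in pigs 16 and 19. The mean log2 signal of the list at 28 dpn was 9.92 and 9.79 in pigs 16 and 19 and 8.59 to 8.86 in the other 3 pigs, whereas at 63 dpn all 5 lay between 8.35 and 8.82. MX2, a restriction factor of viral nuclear import, shows the pattern: it was at 9.21, 8.59, 9.13, 10.68 and 10.91 at 28 dpn and at 8.86, 8.53, 8.69, 8.07 and 8.29 at 63 dpn. RSAD2, the radical enzyme viperin, went from 7.59, 7.65, 8.14, 10.00 and 9.49 to 7.53, 7.24, 7.60, 7.62 and 7.32. Without pig 16 or without pig 19, 0 of the 22 genes had a P of at most 0.05 (medians -0.47 and -0.62), and without the pig block 3 had. The same list had a median of -1.11 on L and -0.32 on H.

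The cell cycle and mitosis genes were higher on average in all 5 pigs. Of 23 measured genes, 4 were higher and 0 lower at a P of at most 0.05, beside 2.78% and 2.36% of all probe sets tested. Of the 23, 19 changed by more than 0 (49.1% of all probe sets) and 6 were higher in 5 of 5 pigs (3.21% of all), with a median of 0.17. UBE2C, which loads ubiquitin for the anaphase promoting complex, was at 8.15, 8.98, 7.94, 9.05 and 8.07 and then at 9.37, 9.36, 8.44, 9.77 and 9.46 (0.84, SE 0.24, q = 0.862). NUSAP1, a spindle protein, was at 0.64 (SE 0.18), BIRC5, the survivin of the chromosomal passenger complex, at 0.47 (SE 0.19), and CCNB1, the mitotic cyclin B1, at 0.35 (SE 0.16), with pig 2 lower at 63 dpn. The proliferation markers were at 0.03 for MKI67 and -0.02 for TOP2A, and the replication gene MCM5 was at -0.01. The mean change of the list was 0.03 in pig 2 and 0.21 to 0.32 in the other pigs, and the count at a P of at most 0.05 ran from 2 to 6 with 1 pig left out. Against all arrays at 28 dpn, in place of the same pigs, the count was 1 and the median 0.01. The L pigs had a mean log2 signal of this list of 7.79 to 8.06 at 28 dpn, above the 7.48 to 7.77 of the M pigs at that age.

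**Figure D2:**
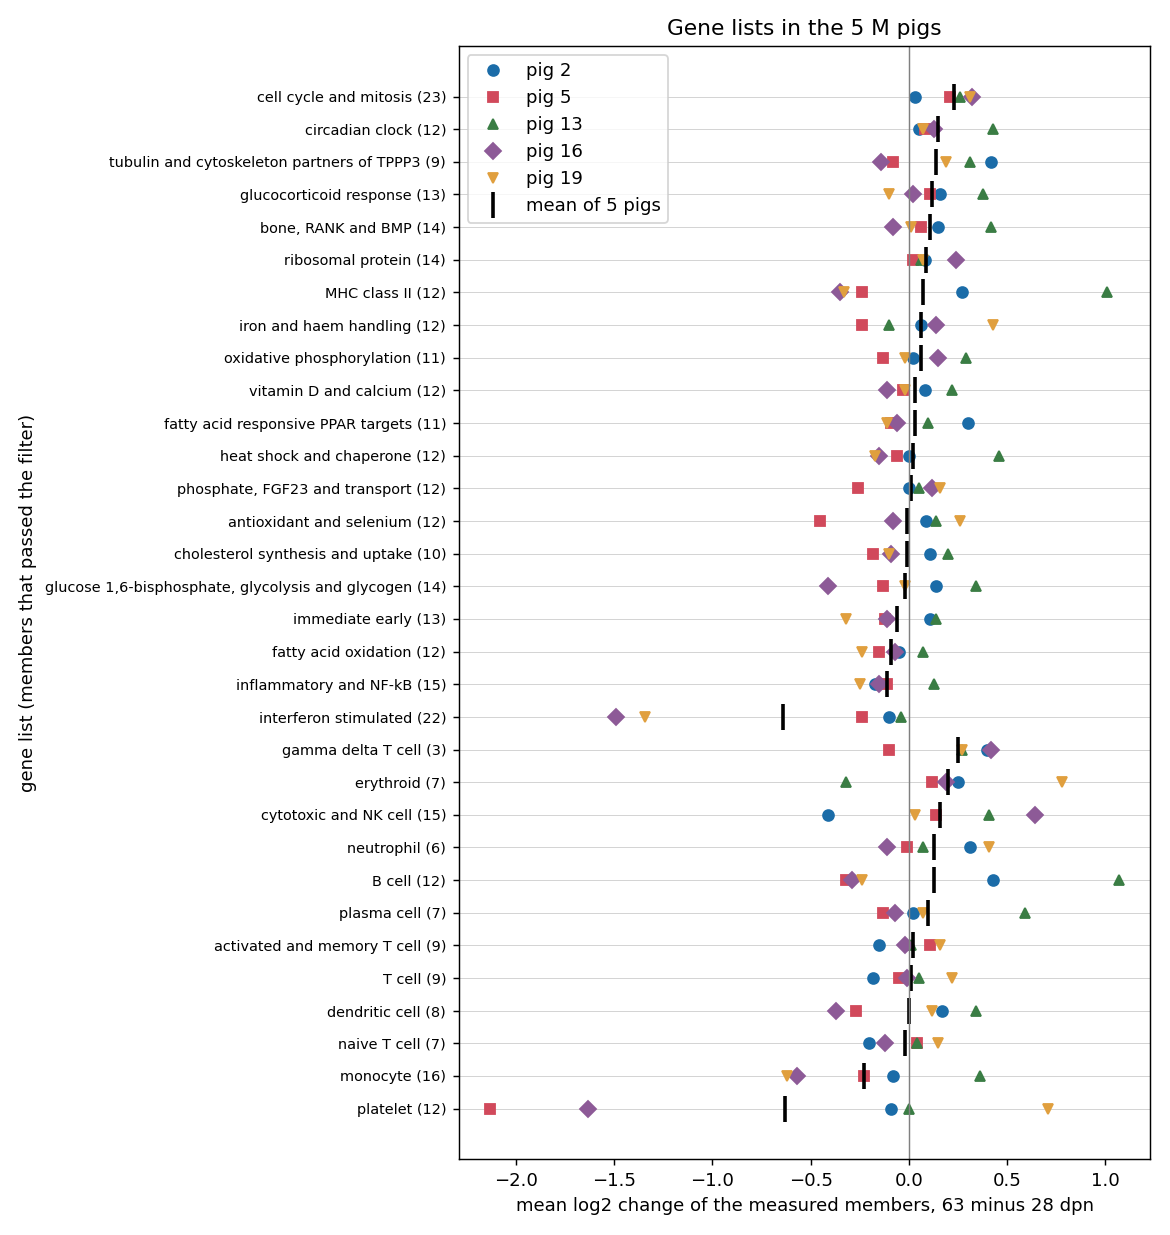
Mean log2 change (63 minus 28 dpn, horizontal axis) of 32 gene lists, with the number of measured members in brackets, in each of the 5 M pigs (coloured symbols) and their mean (black bar). Pigs 16 and 19 stand apart in the interferon stimulated genes (-1.49 and -1.34), pigs 5 and 16 in the platelet genes (-2.13 and -1.63), and pig 13 in the B cell and MHC class II genes (1.07 and 1.01).

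The cell type lists differed between the pigs more than between the ages for several cell types. In bulk RNA, fewer cells of a type and less RNA in each cell cannot be told apart. The 12 platelet genes were all below 0 on average, with 0 at a P of at most 0.05 and a median of -0.76, and the mean change was -0.09, -2.13, 0, -1.63 and 0.71 in pigs 2, 5, 13, 16 and 19. Their mean log2 signal ran from 8.03 to 8.97 at 28 dpn and from 6.38 to 8.74 at 63 dpn. TUBB1, the tubulin of platelets, was measured by 3 probe sets, at -1.15 (SE 0.65), -1.15 (SE 0.55) and -0.87 (SE 0.28), the last of them lower in 5 of 5 pigs. Ferroportin and NQO1, a quinone reductase (-1.09, SE 0.49), were low in the same arrays, NQO1 being at 5.0 in pig 5 and 6.21 in pig 16 at 63 dpn and between 7.46 and 8.41 in the others. Pigs 5 and 16 at 63 dpn were also the lowest of the 10 arrays on the platelet list. The part of platelet RNA in these values was not tested. The median was -0.94, -0.23, -0.93, -0.49 and -1.24 without pigs 2, 5, 13, 16 and 19 in turn, and of these only the fit without pig 19 had platelet genes at a P of at most 0.05, namely 3 that were lower. With array weights 7 were lower at that P, and in a fit of the 10 M arrays alone 4.

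Of 16 monocyte genes, 13 were below 0, 2 of them at a P of at most 0.05 (2.36% of all probe sets tested were lower at that P), and the median was -0.14. The direction of this median did not hold: without the pig block it was 0.11 with 0 genes at that P, against all arrays at 28 dpn 0.12 with 1 gene, and with 1 pig left out it ran from -0.29 without pig 13 to 0.03 without pig 19. CLEC7A, the beta-glucan receptor dectin-1, was at 9.0, 8.17, 7.92, 8.31 and 7.50 and then at 8.41, 7.28, 7.65, 6.33 and 6.75 (-0.90, SE 0.33), and TREM1, an amplifier of inflammatory signals, was at -0.84 (SE 0.36). Both were lower in 5 of 5 pigs, but the P of TREM1 went over 0.05 in 3 of the 5 fits with 1 pig left out and that of CLEC7A without pig 16. CD14 (-0.06), LYZ (0.01) and CCR2 (0.01) were near 0. The B cell list had 1 of 12 genes at a P of at most 0.05. This was VPREB3, a chaperone of the pre-B cell receptor, at 6.46, 6.76, 6.05, 6.73 and 6.88 and then at 7.42, 7.08, 7.46, 7.04 and 7.12, higher without overlap by 0.65 (SE 0.20, q = 0.917). The rest of the B cell list went with the pig: the mean change was 1.07 in pig 13, 0.43 in pig 2 and -0.32 to -0.24 in the other 3, and the MHC class II list was at 1.01, 0.27 and -0.35 to -0.24 in the same pigs. Pig 13 had been the lowest of the 5 at 28 dpn on both lists (8.19 and 8.86) and was the highest at 63 dpn (9.26 and 9.86).

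None of the 9 T cell, 7 naive T cell, 9 activated T cell and 15 cytotoxic and NK cell genes measured had a P of at most 0.05. The T cell receptor chains CD3D (0.01), CD3E (0.13) and CD3G (0.04) were close to 0. KLRD1 and KLRK1, receptors of NK and cytotoxic T cells, were at 0.74 and 0.70. MAF, a transcription factor of some T cell subsets, was at 0.53 (SE 0.24), and CADM1, an adhesion molecule of the dendritic cell list, at 0.58 (SE 0.23). The P of MAF went over 0.05 in 4 of the 5 fits with 1 pig left out, and that of CADM1 in 2. CADM1 went against most of its list: of the 8 measured dendritic cell genes, 6 were below 0, and the median was -0.15. It was the 1 gene of the list that was higher at a P of at most 0.05 (2.78% of all probe sets tested). AHSP, the chaperone of alpha globin in red cell precursors, was at 0.51 (SE 0.17) with 5 of 5 pigs higher.

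**Figure D3:**
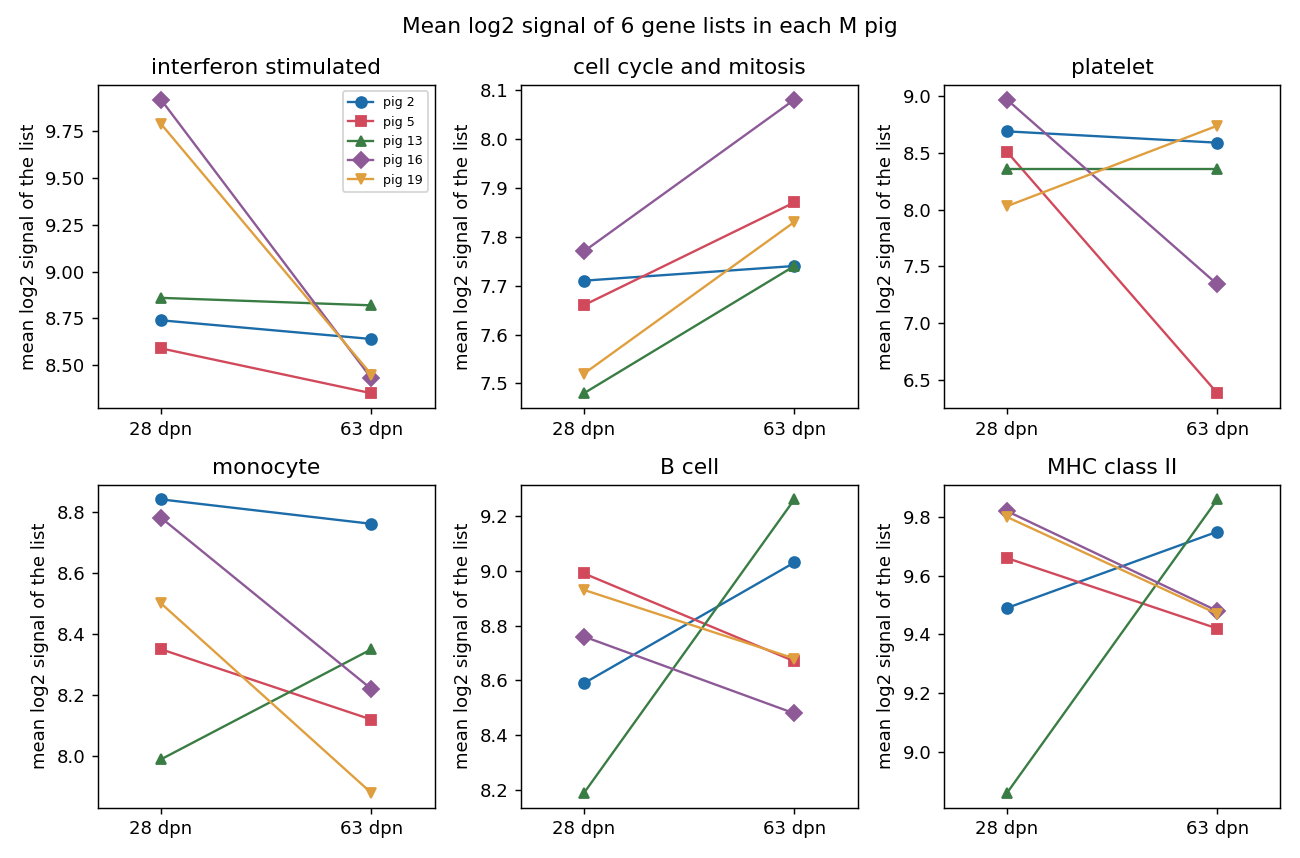
Mean log2 signal (RMA, vertical axis) of the measured members of 6 gene lists in each M pig at 28 and 63 dpn (horizontal axis), 1 line for each pig. Interferon stimulated genes start high in pigs 16 and 19 (9.92 and 9.79) and end between 8.35 and 8.82 in all 5 pigs, and cell cycle genes end higher than they start in all 5.

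Genes of mineral and bone metabolism come next. Of 12 measured genes of phosphate handling, 1 had a P of at most 0.05, and of 12 genes of vitamin D and calcium 0. Of 14 genes of bone, RANK and BMP signalling 1 had, beside 5.14% of all probe sets tested. The medians of these lists were -0.02, 0.05 and 0.14. Of the 14 bone, RANK and BMP genes, 12 changed by more than 0 (49.1% of all probe sets). The median of these 14 was 0.19 on L and 0.28 on H. On M it was 0.01 without pig 13 and 0.10 to 0.16 with another pig left out. GALNT3, which glycosylates FGF23 and so protects it from cleavage, was at 4.62, 5.15, 4.14, 5.04 and 4.58 and then at 5.20, 5.52, 5.32, 4.92 and 5.40. It was higher in all pigs but pig 16 (0.57, SE 0.19, q = 0.938), and its P went over 0.05 when pig 13 was left out. BMPR1A, a type I receptor for bone morphogenetic proteins, was at 4.31, 3.58, 3.94, 4.35 and 4.28 and then at 5.04, 4.18, 4.10, 4.65 and 5.09, higher in 5 of 5 pigs by 0.52 (SE 0.17, q = 0.938). FGF23 was at 0.01 (95% interval -0.31 to 0.33), the vitamin D receptor VDR at -0.13, the calcium-sensing receptor CASR at 0.11 and RUNX2, the osteoblast transcription factor, at 0.02. The phosphate transporters SLC20A2 (-0.04) and SLC34A2 (-0.07), the exporter XPR1 (-0.12) and the mitochondrial carrier SLC25A3 (0.10) all had a P over 0.5. Of the RANK axis, the receptor TNFRSF11A was at 0.24, its ligand TNFSF11 at 0.19 and the decoy receptor TNFRSF11B at 0.13. The value of TNFRSF11A came from pig 13, which went from 6.83 to 7.93 while the other 4 pigs changed by -0.10 to 0.08.

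Of the remaining lists, the antioxidant genes held GPX3, the secreted selenium-dependent glutathione peroxidase, at 0.97 (SE 0.28), and SOD1, the cytosolic superoxide dismutase, at 0.32 (SE 0.14), both higher in 5 of 5 pigs. Of the 12 measured antioxidant genes, these were the 2 higher at a P of at most 0.05 (2.78% of all probe sets tested). NQO1 (-1.09) was the 1 lower (2.36% of all), and the median of the list was -0.02. GPX3 was at 8.32, 10.98, 10.33, 10.18 and 7.34 at 28 dpn and at 9.46, 11.21, 10.48, 10.73 and 10.12 at 63 dpn, and the largest increase was that of pig 19. DNAJB1, a cochaperone, was at 0.54 (SE 0.18) with 5 of 5 pigs higher, and the median of the 12 heat shock genes was 0. The signal of DNAJB1 was low, at 2.93 to 3.19 at 28 dpn and 3.18 to 3.96 at 63 dpn. RORA, a nuclear receptor of the clock, was at 0.45 (SE 0.21). The P of RORA went over 0.05 in 4 of the 5 fits with 1 pig left out, and that of SOD1 in 3. None of the measured genes of cholesterol synthesis (10), oxidative phosphorylation (11), glucocorticoid response (13), immediate early response (13), MHC class II (12) and inflammatory or NF-kB signalling (15) had a P of at most 0.05.

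The change on M was set against that on L and on H in the same fit, to ask which genes followed the age on all diets and which did not. The 3 diets held different pigs. No probe set passed both thresholds against L (0%) or against H (0%). At a P of at most 0.05 the change on M was above that on L for 250 probe sets (0.89%) and below it for 313 (1.11%), and above that on H for 1671 (5.95%) and below it for 1888 (6.72%). The lowest q was 1 against L and 0.0639 against H. Pig 13 bore on the comparison with H: with this pig left out of M, 297 probe sets passed both thresholds, 5894 had a P of at most 0.05, and with any other M pig left out 0 or 1 passed. CPT1A changed by -1.23 on L and -0.57 on H, PGM2L1 by 0.91 and 0.60, BC015417.2 by 1.16 and 1.22, and TPPP3 by 0.81 and 1.16. The 95% interval of the difference to L included 0 for each of these 4 genes, being -0.66 to 0.51 for CPT1A and -0.19 to 1.05 for PGM2L1. Against H it was -1.30 to -0.17 for CPT1A and 0.14 to 1.34 for PGM2L1, and these intervals are not adjusted for the number of probe sets. Without the H pigs 11 and 12 the difference of CPT1A went from -0.73 to -0.44 and its P over 0.05, and that of PGM2L1 from 0.74 to 0.55.

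**Figure D4:**
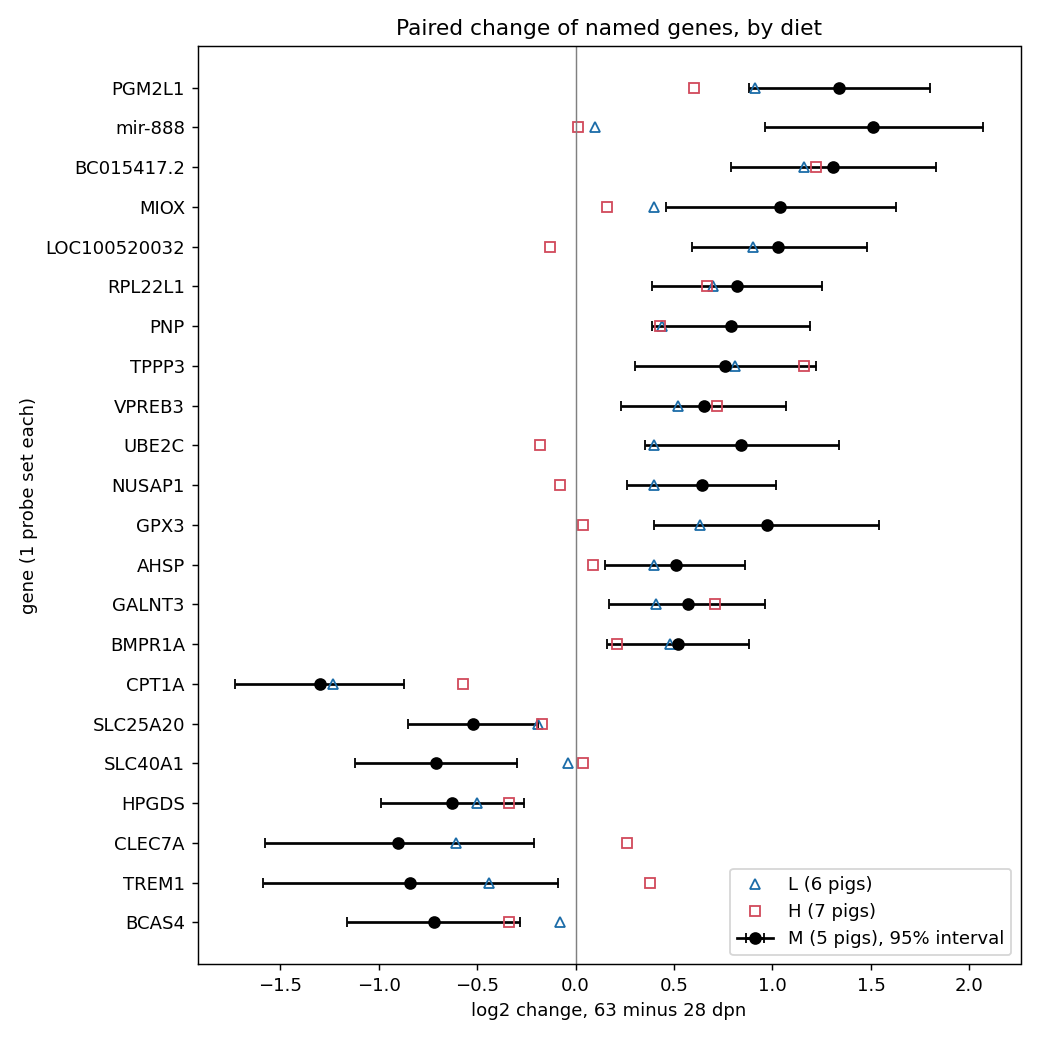
Paired log2 change (63 minus 28 dpn, horizontal axis) of 22 named genes, 1 probe set each, with the M estimate and its 95% interval in black (5 pigs) and the L (triangles, 6 pigs) and H (squares, 7 pigs) estimates without an interval. BC015417.2 lies between 1.16 and 1.31 on all diets, and mir-888 is at 1.51 on M but at 0.10 and 0.01 on L and H.

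The lowest P against H was that of ARMCX2, an armadillo repeat protein encoded on the X chromosome. On M it was at 5.15, 4.87, 5.17, 5.16 and 4.96 at 28 dpn and at 5.88, 5.69, 5.35, 5.88 and 4.92 at 63 dpn, a change of 0.48 (SE 0.15), while on H it was at -0.70. The difference was 1.19 (95% interval 0.79 to 1.59, q = 0.0639), and 1.20 without the H pigs 11 and 12 (q = 0.127). The means at 28 dpn, before the diets were fed, were 5.06 on M, 5.59 on L and 5.86 on H, and pig 8, the sixth M pig, was at 5.97 at that age. Against all arrays at 28 dpn the change of ARMCX2 on M was -0.01, and its other 5 probe sets changed by -0.20 to 0.43 on M. The pigs of M and H also had unlike means before feeding for others of the lowest P. MAOA, the monoamine oxidase (-1.27 against H), was at 6.08 on M and 5.39 on H at 28 dpn, A2M, a protease inhibitor (-0.95), at 6.18 and 5.54, and TEK, the angiopoietin receptor (-1.24), at 6.63 and 5.78. A probe set that the annotation assigns to the microRNA gene MIR221 was at 4.34, 4.62, 3.19, 4.80 and 4.01 and then at 2.23, 3.34, 3.68, 2.95 and 2.49 on M (-1.26, SE 0.36), with a difference to H of -2.20 (q = 0.219). DMWD (1.39), TANC1 (0.86), RILPL1 (0.90) and LOC100520032 (1.16) were above H. Each of them was lower on M than on H at 28 dpn. DMWD was at 5 and 5.52, and TANC1 at 6.21 and 6.57. RILPL1 was at 4.53 and 4.81, and LOC100520032 at 7.42 and 8.2. MIR221 was at 4.19 on M and 3.62 on H at that age. Other probe sets changed on M by 0.082, -0.202 and -0.032 for RILPL1, whose probe set above was at 0.32. Those of MAOA changed by 0.005 to 0.238, and its probe set above by -0.27. A2M hardly changed on M, by -0.004 on its probe set above and by 0.061 to 0.108 on its others. Without the H pigs 11 and 12 the differences were -1.19 for MAOA, -0.91 for A2M, -1.22 for TEK, -1.91 for MIR221, 1.4 for DMWD, 0.79 for TANC1, 0.96 for RILPL1 and 1.11 for LOC100520032.

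By lists, 9 of the 16 monocyte genes were below H at a P of at most 0.05 (median difference -0.83), and 3 without the H pigs 11 and 12 (-0.52). The glucocorticoid response genes, such as those that cortisol induces in leukocytes, had 7 of 13 below H (-0.58) and 3 without these pigs (-0.35), and the inflammatory genes 6 of 15 (-0.47) and 3 (-0.33). The cell cycle genes had 7 of 23 above H (median difference 0.36) and 8 without the pigs (0.27), and the erythroid genes 5 of 7 (0.79) and 2 (0.60). Over all probe sets tested 6.10% were below and 5.27% above H without these pigs. Some lists started at unlike levels before feeding. The median array of the cell cycle list was at 7.66 on M and 7.80 on H at 28 dpn, and at 7.83 and 7.80 at 63 dpn. At 28 dpn the monocyte list was at 8.50 and 8.17 and the inflammatory list at 6.79 and 6.57. The glucocorticoid list was then at 7.88 and 7.86 and the erythroid list at 11.55 and 11.57. The list of monocyte markers had its highest array at 10.37 among the H arrays at 63 dpn and at 8.76 among the M arrays, and its part in the other differences to H was not tested.

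Against L the lowest P were those of CCDC38, a coiled-coil protein (difference -0.92, 95% interval -1.32 to -0.53), BEX5, a brain-expressed X-linked protein (-1.05), MAPK4, an atypical MAP kinase (-1.78, -2.72 to -0.85), SYTL5 (1.02), mir-888 (1.42), DNAJB1 (0.98), STX16, a syntaxin of the Golgi (0.97), and TOB1 (-0.73). MAPK4 was at 5.39, 4.96, 5.64, 5.44 and 5.16 on M at 28 dpn and at 4.62, 4.26, 3.93, 3.36 and 5.63 at 63 dpn, so that pig 19 went the other way. Its mean at 28 dpn was 5.32 on M and 3.89 on L. STX16 was at 6.94 on M and 7.75 on L at that age, and DNAJB1 at 3.04 and 3.75. Before feeding, CCDC38 was at 3.45 on M and 2.97 on L, BEX5 at 4.79 and 4.21, and TOB1 at 4.01 and 3.69. SYTL5 was at 4.53 and 4.91, and mir-888 at 2.95 and 3.13. The signal of CCDC38 was low, at 3.19 to 3.74 on M at 28 dpn and 2.84 to 3.38 at 63 dpn. Other probe sets changed on M by -0.22 for MAPK4, -0.29 for BEX5 and -0.25 to -0.08 for STX16, whose probe set above was at 0.38. The loci LOC100157727 (1.65) and LOC100155532 (-1.26), without a symbol, complete the 10, and the value of LOC100157727 rested on pig 5, which went from 1.22 to 4.68. The mean of LOC100157727 at 28 dpn was 2.06 on M and 3.47 on L. Of the 32 lists, only the heat shock list had a member that differed from L at a P of at most 0.05, which was DNAJB1, so that none of the 22 interferon stimulated genes (median difference 0.42) and none of the 23 cell cycle genes (0.11) did.

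**Figure D5:**
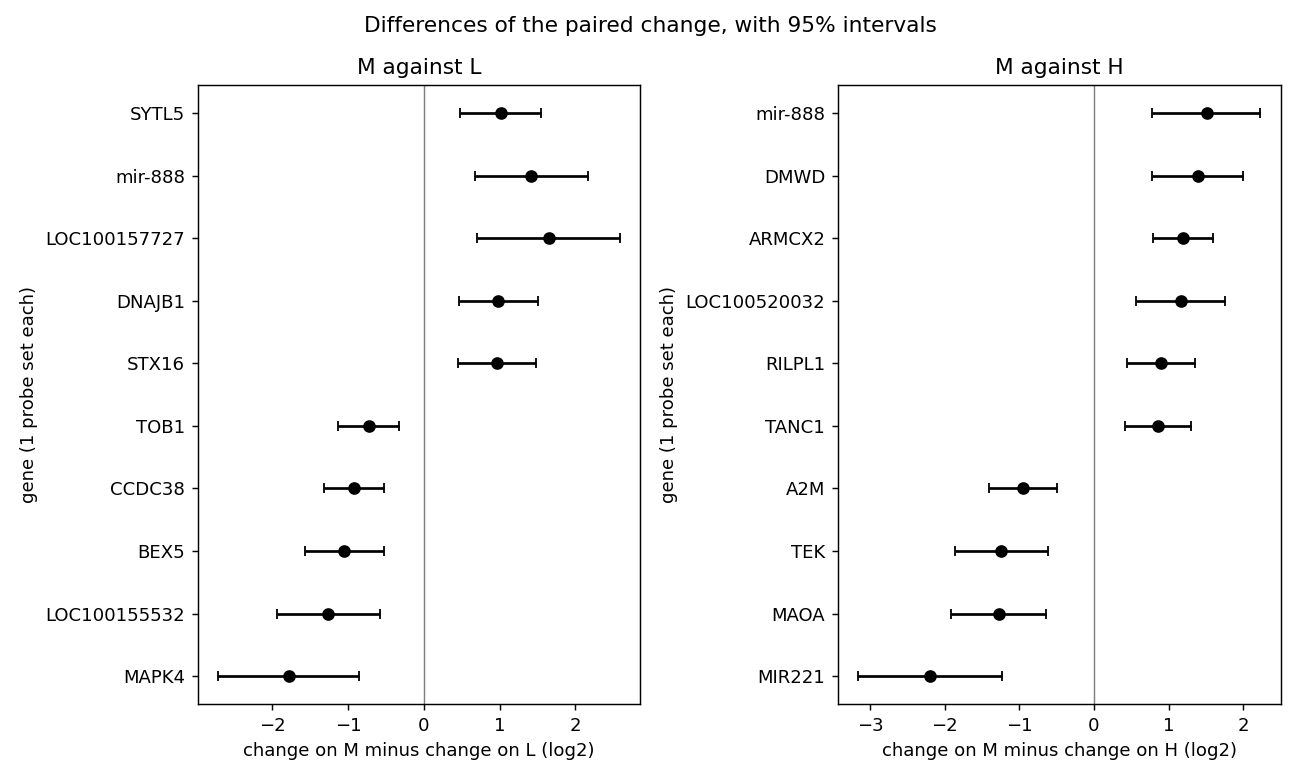
Change on M minus change on L (left) and on H (right) in log2 units (horizontal axes), with 95% intervals not adjusted for the number of probe sets, for the 10 named genes with the lowest P in each comparison. The genes were chosen by P, so all intervals exclude 0, and the largest differences are -1.78 for MAPK4 against L and -2.20 for MIR221 against H.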

How the data were processed

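RNA of PBMC was hybridised to a porcine expression array, 1 array for each of 37 samples from 19 pigs. The deposited table holds log2 values that the authors obtained by RMA normalization of the scanned arrays, and GCOS 1.1.1 is named in the submitters' processing notes. RMA values keep no background level, so precision is set by the number of arrays. Diet, age, gender and pig number came from the labels. The 123 control probe sets were left out, and the study's filters (SD over 0.23 and mean over 2.5 over all arrays) left 28086 probe sets. The paper reports a smaller number of probe sets after these filters, and fewer piglets than the 19 of the labels. Of the 28086, 15048 had a name and 13038 had none. The names were symbols of the platform annotation, apart from those of mir-888 and BC015417.2. Before the filters, the symbols of 426 probe sets on the array were updated through RefSeq synonyms. Probe sets of microRNA hairpins were named by their identifiers.

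The change was tested in R 4.3.3 with limma 3.58.1 (lmFit and eBayes) on the 36 arrays of the 18 pigs measured at both ages, with pig as a fixed effect and 1 change for each diet, so that the diets shared the spread. Sire and litter are not in the labels, and the pig term takes them up. Each q is a limma P adjusted by Storey's method over all probe sets tested (lambda 0.05 to 0.95, step 0.05, smoothing spline with 3 degrees of freedom). With 5 pigs an exact two-sided sign flip test cannot go below p = 0.0625, so none is given for single genes. The numbers pair the samples because the labels give both arrays of a pig the same number. As a check, deviations from the mean of the group were correlated between both arrays of a pig, at -0.0656, 0.0536, -0.123, 0.235 and -0.119 in pigs 2, 5, 13, 16 and 19, and 2 of 5 arrays at 28 dpn correlated best with their own pig. Over the whole series the consensus correlation within pigs was -0.00581. The check thus showed no general likeness of the arrays of a pig, and the pairing rests on the labels. The arrays of different pigs are separate animals.

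The lists of 12 cell types and 20 processes were written by hand, with 1 probe set for a gene, namely the passing one of highest mean. Named genes were the 15 named probe sets with the lowest P in each direction with 5 of 5 pigs agreeing, up to 4 members of each list, 5 genes of the series (CPT1A, PGM2L1, TPPP3, BC015417.2 and mir-888), all measured genes of the mineral and bone lists, and up to 10 with the lowest P against L and against H. Further list members, other probe sets of a gene and the LOC396781 probe sets were chosen after seeing their values. The members and lists were chosen with earlier results of these data known. The scripts were checked on simulated data. There, 5 of 100 changes of 0.5 and 58 of 100 changes of 1 passed both thresholds, as did 5 unchanged probe sets. Most changes of 0.5 were thus missed at these thresholds. The result of 1 gene that the rule names is not reported here.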

Additional observations from a re-analysis of the deposited data

Results flagged for a closer look

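The change of 192 named probe sets and the mean change of 32 lists were examined for a single pig that stood apart from the other 4, by the gap to the nearest pig as a share of the range. This marked 9 probe sets and 5 lists, and chance marks about 1 in 20 such groups of values. Pig 13 was the pig apart for TNFRSF11A (RANK, gap 0.854 of the range, change 1.1 against -0.10 to 0.08 in the others), RUNX2 (0.854, change 0.49 against -0.15 to -0.05), TUBB (0.728, change 0.76 against -0.08 to 0.15) and BACH2 (0.774, change 0.07 against -0.34 to -0.24). It was so too for the plasma cell (0.732, mean change 0.59), circadian clock (0.797, 0.43) and heat shock lists (0.725, 0.46). Pig 2 was apart for TPPP (0.863, change 1.07 against -0.14 to 0.03), RXRA (0.727, change 0.61) and CCNB1 (0.722, change -0.26 against 0.40 to 0.66). Pig 5 was apart for LOC100157727 (0.736, change 3.45) and for the gamma delta T cell list (0.715, mean change -0.10). Pig 19 was apart for XPR1 (0.712, change 0.62 against -0.47 to -0.16) and pig 16 for the ribosomal protein list (0.737, mean change 0.24).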

How the results depend on the processing

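With 5 pigs, the count of probe sets past both thresholds on M was 0 as reported and 2 with a stricter filter (mean over 5), 2 with array weights, 1 after repeated quantile normalization, 2 without the H pigs 11 and 12, 0 to 2 with 1 M pig left out (2 without pig 13) and 5 against all arrays at 28 dpn. These were CPT1A and PGM2L1 with the stricter filter, with array weights and without the H pigs, CPT1A after quantile normalization, CPT1A and mir-888 without pig 13, and in addition TPPP3 and BC015417.2 against all arrays at 28 dpn. Without the pig block the count was 0, with 1460 probe sets at a P of at most 0.05. At a P of at most 0.05 there were 1443 on M, 2250 with no filter, 877 with the stricter filter and 2300 with array weights. The share higher was 54.1%, and 44.6% without pig 19. Against L the count at that P was 563, then 1003 with no filter, 168 with the stricter filter and 1072 with array weights. Against H it was 3559, then 5528 with no filter and 2539 to 5894 with 1 pig left out, the highest without pig 13. Past both thresholds against H there was 1 probe set, ARMCX2, with no filter, with the stricter filter, with unmoderated variances and with array weights, and 0 to 297 with 1 pig left out (297 without pig 13 and 1, ARMCX2, without pig 19). The ages agreed in 5 of 5 pigs upwards for 1372 probe sets with no filter and 582 with the stricter one, and downwards for 1111 and 324. ARMCX2 on M turned to -0.01 against all arrays at 28 dpn. The median of the ribosomal protein list was 0 and ran from -0.03 to 0.08 with 1 pig left out, the latter without pig 19. The cause was not tested in any of these. Of 3230 values of named genes recomputed under the alternatives, 14 became calls and 0 lost one. Direction was compared only for genes with a P of at most 0.05 on M, and 1 such value reversed, that of ARMCX2. The other 3215 kept their side of the thresholds. They include genes with a P over 0.05 that turned, such as PAX5 (0.21, and down to -0.07 with 1 pig left out).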
